A study of Mus musculus with 10 samples.

Results

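The genes described here are tied to the resting, naive or stem-like state of T cells: Foxo1, Foxo3, Foxp1, Klf2, S1pr1, Tcf7, Lef1, Bach2 and Satb1. They were chosen by symbol, with earlier results of these data known. All 9 were found among the 17493 genes of the deposited table and among the 12535 genes that passed the filter on low values. The libraries came from Th17 cells, the IL-17-producing helper T cells, grown from naive CD4+ T cells of C57BL/6 spleen. The cells were activated with plate-bound antibodies to CD3 and CD28 in IL-6 (20 ng/mL) and TGF-beta (2.5 ng/mL), and this holds for both groups. A group of 2 libraries received DMSO, labelled as the control treatment and as WT in the table. The other 2 libraries received TMP269, a small molecule that selectively inhibits HDAC4, HDAC5, HDAC7 and HDAC9, the histone deacetylases of class IIa, before harvest. The labels state neither the age and number of the mice nor the dose and duration of TMP269. They also do not say whether replicates were separate cultures, so each p-value reflects the spread among these 4 libraries and that spread may be technical.

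As background, a resting T cell is kept out of the cell cycle and in circulation by an active programme. FOXO factors sit in the nucleus until AKT, switched on by antigen and cytokine signals, phosphorylates them and sends them to the cytoplasm. In the nucleus they drive genes for homing and survival, among them Klf2, whose product in turn drives S1pr1, the receptor that lets T cells leave lymphoid organs. TCF1, encoded by Tcf7, and LEF1 are related HMG-box proteins that hold memory and stem-like T cells in a state from which effectors can be renewed. Class IIa histone deacetylases have little enzyme activity of their own and are known to act as repressive partners of MEF2 factors.

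The 250 bases before the start site are shown for Klf2 and Foxp1. Klf2 was the gene of the 8 searched with a match to the motif of MEF2, and Foxp1 had the smallest p of the 9. Both are reference sequences from RefSeq on GRCm38.p6, not reads of these libraries, whose build was mm9. In Klf2 (chr8:72318812-72319061, plus strand) the capitals mark a match to the MEF2 motif. In Foxp1 (chr6:99520994-99521243, minus strand, the most upstream of its start sites in the table) the capitals mark matches to the KLF motif.
Klf2: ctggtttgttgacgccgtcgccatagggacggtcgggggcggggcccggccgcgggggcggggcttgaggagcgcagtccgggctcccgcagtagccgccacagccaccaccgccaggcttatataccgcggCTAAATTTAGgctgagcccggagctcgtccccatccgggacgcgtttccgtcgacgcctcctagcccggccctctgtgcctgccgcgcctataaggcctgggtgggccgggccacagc
Foxp1: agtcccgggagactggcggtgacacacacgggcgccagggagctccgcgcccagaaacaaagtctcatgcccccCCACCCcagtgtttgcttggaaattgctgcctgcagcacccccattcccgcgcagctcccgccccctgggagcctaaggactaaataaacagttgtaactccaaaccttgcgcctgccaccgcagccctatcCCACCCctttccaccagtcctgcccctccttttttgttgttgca

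Motifs were searched on both strands of the 250 upstream bases in 18 windows of 8 of the genes, some of which overlap. S1pr1 was not searched. The MEF2 motif was searched as 10 bases that open with CTA and close with TAG, with any bases between. It was in 1 of the 18 windows, that of Klf2, 118 to 109 bases before the start. It was in 3.2% of all 32851 windows. The KLF motif CCACCC was in 10 of the 18 windows, belonging to Foxp1, Klf2, Lef1, Satb1 and Tcf7, and in 28.1% of all windows. The FOXO motif GTAAACA, the TCF and LEF motif ATCAAAG and the AP-1 motif TGANTCA were in 0 of the 18 windows, against 3.17%, 3.21% and 6.75% of all windows. These are descriptions of letters near start sites, and distal elements were not searched.

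With TMP269, 6 of the 9 genes rose: Foxo1, Foxo3, Foxp1, Klf2, Tcf7 and Bach2. Calls were made with limma at an adjusted p under 0.05, and 12.8% of all genes tested were called higher and 14.7% lower. Higher genes were 46.5% of all calls, and 67.3% when libraries were scaled to equal totals, a scaling that moved the median of all genes to 0.10 and that of the 9 to 0.53 on the log2 scale. Fold changes of these 6 ran from 1.28 for Foxo1 to 1.79 for Klf2. Lef1, Satb1 and S1pr1 were not called. No member was called lower with limma, at an unadjusted p under 0.05 or by edgeR, DESeq2 or limma-voom (0 by each). The median log2 fold change of the 9 was 0.42, beside -0.0037 over all genes tested. In 8 of the 9 both TMP269 libraries lay above both DMSO libraries, which held for 32.6% of all genes tested. The count test of edgeR on the recovered reads called 7 of the 9 higher, with Lef1 added, where 13.2% of all genes tested were called higher. With 2 values against 2, an exact two-sided permutation p cannot go under 0.333, and the calls therefore depend on limma's pooling of variance over genes.

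**Figure D1:**
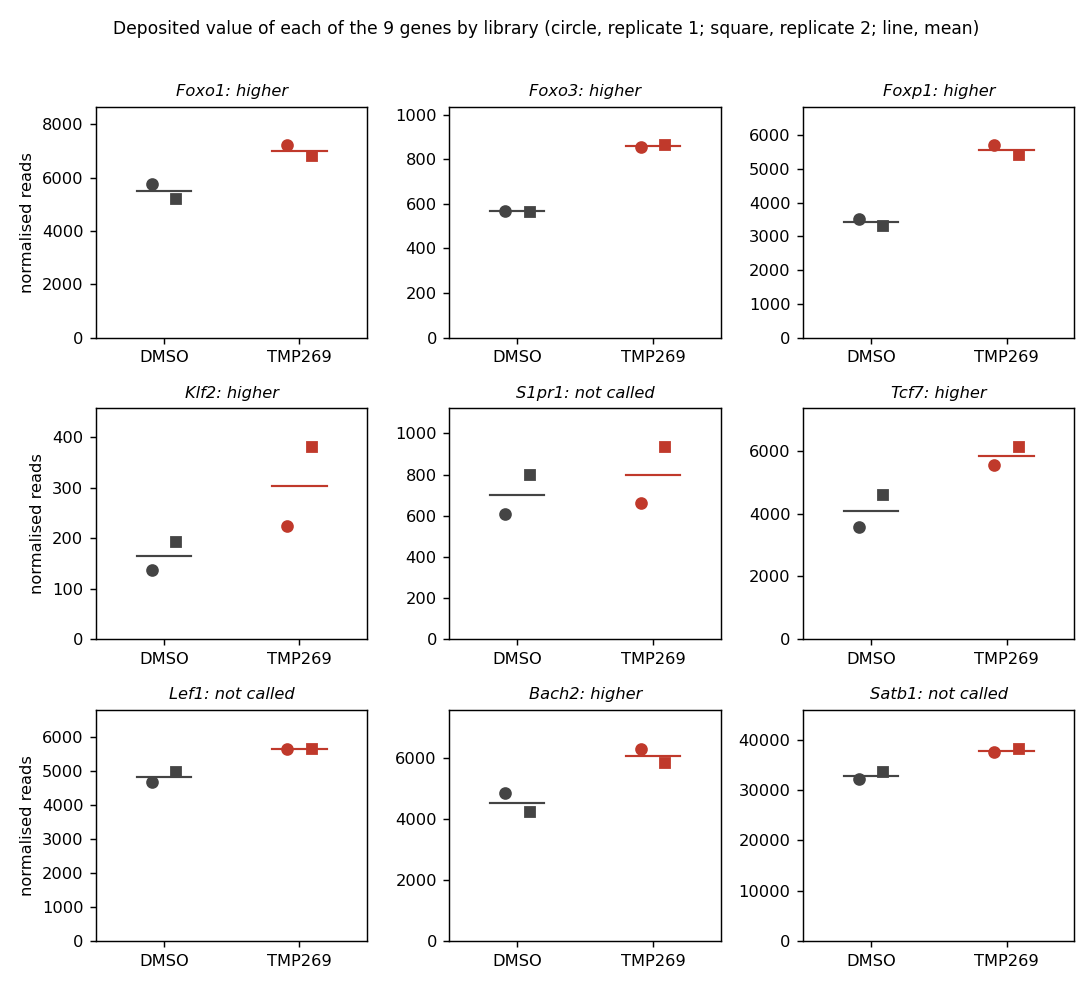
Normalised reads (vertical axes, each from 0) of the 9 genes in each DMSO and TMP269 library. Circles are replicate 1, squares replicate 2, lines group means and titles the limma call. Only the S1pr1 panel has overlapping groups.

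The libraries held 20007042 to 25321455 reads. Values below are normalised reads, that is, reads divided by the authors' size factor for the library. They compare libraries for 1 gene and not genes with each other, since transcript lengths were not used. DMSO replicate 2 stood apart in its share of the ribosomal RNA gene Rn45s, 2.20% against 0.716% to 1.12% in the other 3. Values within each pair of replicates differed by far more than counting noise (chi-square per degree of freedom 22.8 in the DMSO pair and 12.02 in the TMP269 pair), so none was a second deposit of the same library. The T cell genes Cd3e (4097 and 4821 in DMSO, 4428 and 4776 with TMP269) and Cd4 (8299 and 8263, then 9479 and 8896) were present in all 4 libraries. Neither passed the threshold (limma adjusted p = 0.731 for Cd3e and 0.197 for Cd4). The Th17 cytokine genes Il17a and Il17f were present and fell to 0.401-fold and 0.479-fold with TMP269 (limma adjusted p = 0.000127 and 0.00113). In bulk samples such as these, fewer cells of a type and less RNA per cell cannot be told apart.

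The FOXO factors rose modestly. Foxo1, the main FOXO factor of naive T cells, was at 5768 and 5197 normalised reads in DMSO replicates 1 and 2 and at 7212 and 6792 in TMP269 replicates 1 and 2. The lower TMP269 library was above the higher DMSO library, and the log2 fold change was 0.35 ± 0.09 (SE, n = 2 per group, limma adjusted p = 0.0163). Foxo1 missed the threshold when DMSO replicate 2 (limma adjusted p = 0.0828) or TMP269 replicate 1 (0.101) was left out. Foxo3, a relative that shares targets with Foxo1 and is known for driving death and cell cycle arrest genes, was at 569 and 562 in DMSO and at 856 and 862 with TMP269. Replicates of Foxo3 lay within 1.01-fold of each other in both groups. Its log2 fold change was 0.60 ± 0.09 (SE, limma adjusted p = 0.00254), a 1.52-fold rise. Foxo4, another family member outside the 9, was at 543 and 542 in DMSO and at 531 and 550 with TMP269 (limma adjusted p = 0.980). Foxo4 was named after its values were seen.

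Foxp1, a forkhead factor that restrains homeostatic growth of naive T cells, had the smallest p of the 9. It was at 3529 and 3320 normalised reads in DMSO and at 5706 and 5430 with TMP269. The groups were far apart beside their internal spread, with a log2 fold change of 0.70 ± 0.08 (SE, n = 2 per group, limma adjusted p = 0.000733), or 1.63-fold. Of all genes tested, 7.01% had a larger log2 fold change. With each library left out in turn, its log2 fold change ran from 0.66 to 0.75 and the call held each time.

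**Figure D2:**
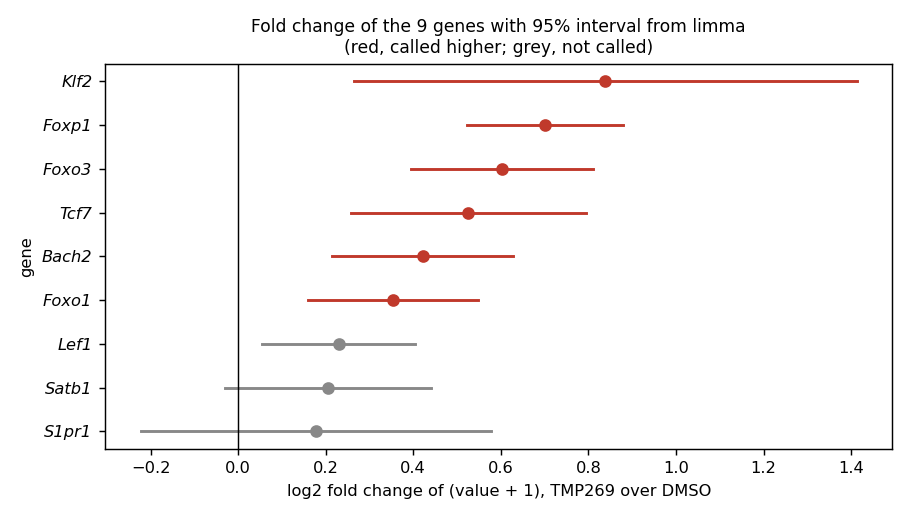
Log2 fold change of (value + 1) with TMP269 over DMSO (horizontal axis) for each gene (vertical axis), with its 95% interval from limma, 2 libraries per group. Intervals of the 6 called genes (red) lie above 0, those of Satb1 and S1pr1 span 0, and that of Lef1 lies above 0 before adjustment.

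Klf2 rose, and its target S1pr1 was not called. Klf2, a zinc finger factor that holds T cells in quiescence and in circulation, was at 138 and 193 normalised reads in DMSO and at 224 and 381 with TMP269. These rest on 153, 160, 217 and 401 reads, the lowest counts among the 9 genes. The groups did not overlap, but the TMP269 pair differed 1.70-fold within itself. The log2 fold change was 0.84 ± 0.25 (SE, n = 2 per group, 95% interval 0.26 to 1.41, limma adjusted p = 0.0382). Klf2 missed the threshold when DMSO replicate 1 (limma adjusted p = 0.117) or TMP269 replicate 2 (0.157) was left out, and with no filter on low values (0.0571). The log2 fold change of Klf2 was 0.46 without TMP269 replicate 2 and 1.22 without TMP269 replicate 1.

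S1pr1, the sphingosine-1-phosphate receptor of T cell egress, was at 606 and 796 normalised reads in DMSO and at 660 and 935 with TMP269. The groups overlapped, and in each the second replicate held the higher value. The log2 fold change was 0.18 ± 0.18 (SE, n = 2 per group, limma adjusted p = 0.482), with a 95% interval from -0.22 to 0.58. The interval holds changes of either sign, so the direction of S1pr1 was not resolved. Without TMP269 replicate 1 the gene was called higher (log2 fold change 0.43, limma adjusted p = 0.0427), and without DMSO replicate 1 or TMP269 replicate 2 the sign turned (-0.02 and -0.07, limma adjusted p = 0.950 and 0.785). Whether Klf2 and S1pr1 differ in their response was not tested.

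Of 17 tested genes on the S1P axis or linking Klf2 to MEF2, 3 rose and 2 fell, with a median log2 fold change of 0.04. These and the list counts that follow stand beside 12.8% called higher and 14.7% called lower over all genes tested, and none is called particular to its list. Cd69, an activation marker whose protein draws S1PR1 off the cell surface, went from 1984 and 2056 to 4016 and 3970 normalised reads, a 1.98-fold rise (limma adjusted p = 0.000153). Sgpl1, the lyase that breaks down sphingosine-1-phosphate, rose 1.86-fold (limma adjusted p = 0.000202). S1pr3, another S1P receptor, fell to 0.622-fold (limma adjusted p = 0.0190), a call lost with DESeq2 (0.0702) and without DMSO replicate 1 (0.0610), DMSO replicate 2 (0.0558) or TMP269 replicate 2 (0.0648). Mef2c, a MEF2 factor also abundant in B cells, went from 425 and 437 to 113 and 117 normalised reads, 0.268-fold (limma adjusted p = 0.000127). Mef2a, the remaining gene of this set that rose (1.29-fold, limma adjusted p = 0.0194), was named after its values were seen. With equal library totals 5 genes of this set rose, and 1 fell without either DMSO library.

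Tcf7 rose and Lef1 was near the threshold. Tcf7, which encodes TCF1, was at 3576 and 4601 normalised reads in DMSO and at 5564 and 6127 with TMP269. Its DMSO pair differed 1.29-fold, and both TMP269 libraries lay above it. The log2 fold change was 0.53 ± 0.12 (SE, n = 2 per group, limma adjusted p = 0.0127), and the call held with each library left out, at 0.34 to 0.71. The value without DMSO replicate 1 was the lowest (0.34). Lef1 was at 4667 and 4970 in DMSO and at 5658 and 5634 with TMP269, with no overlap and a TMP269 pair almost equal to each other. Its log2 fold change of 0.23 ± 0.08 (SE, 95% interval 0.05 to 0.40) missed the threshold (limma adjusted p = 0.0557). Lef1 was called higher with equal library totals (limma adjusted p = 0.0131), with equal totals leaving out Rn45s (0.0129), in edgeR (0.0444) and in limma-voom (0.0410), and not in DESeq2 (0.0513). Scaling to equal library totals also raised the median of all genes. With each library left out in turn, the log2 fold change of Lef1 ran from 0.18 to 0.27, and Lef1 was not called in those fits.

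Of 24 tested partners of TCF and LEF factors and genes of the Wnt pathway, 3 rose and 2 fell (median log2 fold change 0.09), beside 12.8% called higher and 14.7% called lower over all genes tested. Apc, a scaffold of the complex that destroys beta-catenin, went from 1477 and 1340 to 2009 and 1969 normalised reads (1.41-fold, limma adjusted p = 0.00388). Tle4 and Tle1 belong to the Groucho corepressors, which TCF1 and LEF1 recruit, and the other listed members were not called. Tle4 rose 1.48-fold (limma adjusted p = 0.00849), from 445 and 447 to 606 and 723 normalised reads. Tle1 fell to 0.647-fold (limma adjusted p = 0.00425), from 1207 and 1386 to 777 and 900.4. Lgr4, a receptor that strengthens Wnt signals, fell to 0.669-fold (limma adjusted p = 0.00884). Axin2, a standard readout of beta-catenin activity that was named after its values were seen, was at 262 and 298 in DMSO and 330 and 347 with TMP269 (log2 fold change 0.27 ± 0.13, SE, limma adjusted p = 0.141). The number that rose was 5 with equal library totals, without DMSO replicate 1 and without TMP269 replicate 2.

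Bach2 rose and Satb1 was not called. Bach2, a repressor that limits effector differentiation by competing with AP-1 factors, was at 4850 and 4246 normalised reads in DMSO and at 6319 and 5848 with TMP269. The groups did not overlap, and the log2 fold change was 0.42 ± 0.09 (SE, n = 2 per group, limma adjusted p = 0.0105). Without DMSO replicate 2 the adjusted p was 0.0504. Satb1, a chromatin organiser that is high in developing and naive T cells, was at 32079 and 33522 in DMSO and at 37446 and 38201 with TMP269. Its groups did not overlap either. The log2 fold change was 0.21 ± 0.10 (SE, 95% interval -0.03 to 0.44, limma adjusted p = 0.169), and Satb1 was called with equal library totals (0.31, limma adjusted p = 0.0343) or with equal totals leaving out Rn45s (0.30, 0.0386).

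Genes around these repressors were read from fixed lists. Of 17 tested partners of BACH2 and effector genes that it is known to restrain, 5 rose and 0 fell with limma (0 at an unadjusted p under 0.05, and 0 in edgeR and DESeq2, but 1 with the replicate number as a block), with a median log2 fold change of 0.15. Maff, a small MAF protein of the kind that pairs with BACH factors, went from 528 and 526 to 813 and 887 normalised reads (1.61-fold, limma adjusted p = 0.00191). Hmox1, the haem oxygenase gene that BACH proteins repress, rose 1.53-fold (limma adjusted p = 0.00672). The other 3 were the effector genes Gata3, Il1rl1 and Gzmb at 1.44-fold to 1.49-fold, named after their values were seen. Prdm1, the effector regulator gene best known as repressed by BACH2 and likewise named afterwards, was at 242 and 230.4 in DMSO and at 220.2 and 252 with TMP269 (limma adjusted p = 0.984). Without DMSO replicate 2 only 2 genes of this list rose. Of 9 tested relatives and partners of SATB1, 1 rose and 2 fell. Cux1, a homeobox relative, rose 1.24-fold, whereas the nucleosome remodeller Smarca5 and the corepressor Ctbp1 fell to 0.832-fold and 0.833-fold (limma adjusted p = 0.0159, 0.0347 and 0.0391). The Cux1 call was lost without either TMP269 library (limma adjusted p = 0.0601 and 0.0860). Both falls were lost with equal library totals (limma adjusted p = 0.113 and 0.125) and without DMSO replicate 2 (0.150 and 0.184), TMP269 replicate 1 (0.216 and 0.153) or TMP269 replicate 2 (0.105 and 0.174).

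**Figure D3:**
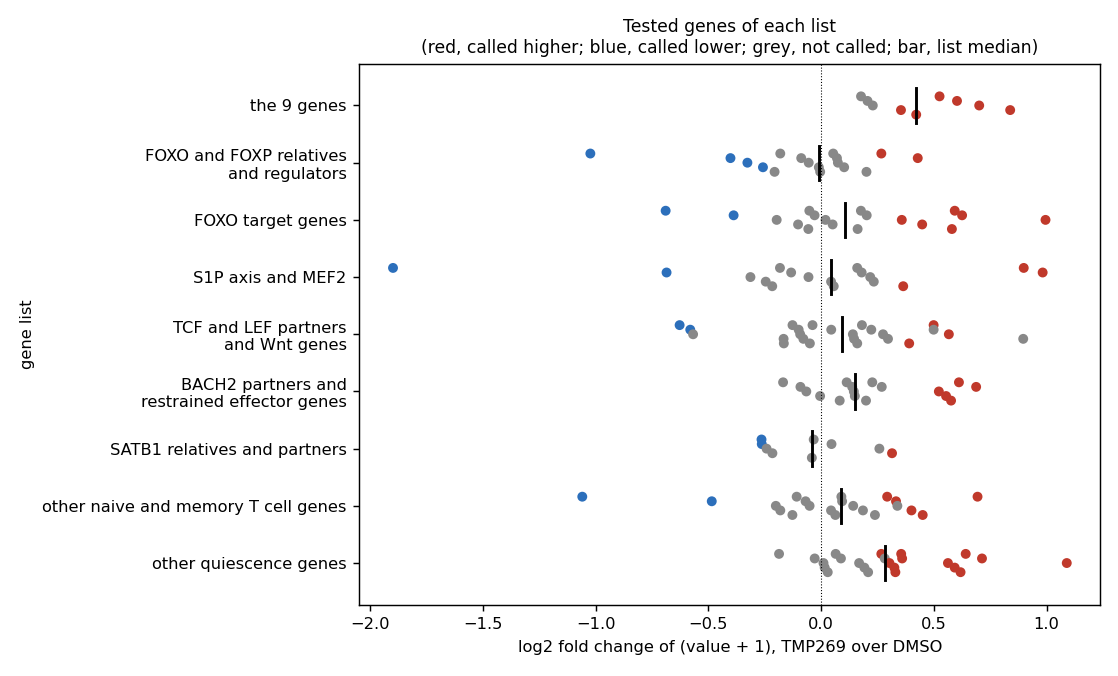
Log2 fold change of (value + 1) with TMP269 over DMSO (horizontal axis) of every tested gene in the 9 described genes and in 8 fixed lists (vertical axis). Dots are genes coloured by limma call and bars are list medians, which run from -0.04 for SATB1 relatives and partners to 0.42 for the 9 genes.

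FOXO regulators and targets moved in both directions. Of 17 tested FOXO and FOXP relatives and FOXO regulators, 2 rose and 4 fell (median log2 fold change -0.01). Sgk1, a kinase that like AKT phosphorylates FOXO proteins, went from 1778 and 1399 to 818 and 735 normalised reads, 0.492-fold (limma adjusted p = 0.000972). The gene of the 14-3-3 protein gamma, Ywhag, one of the proteins that hold phosphorylated FOXO in the cytoplasm, fell to 0.757-fold (limma adjusted p = 0.00741). Rictor, a subunit of the kinase complex mTORC2 that activates AKT and SGK1, rose 1.35-fold (limma adjusted p = 0.0164, but 0.0801 without DMSO replicate 2). Without DMSO replicate 2, 0 of these genes rose and 2 fell, and with any other library left out 1 rose. With equal library totals, or without either TMP269 library, 2 fell.

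Among 18 tested FOXO target genes, 6 rose and 2 fell (median log2 fold change 0.11). Pik3ip1, an inhibitor of PI3 kinase that is high in resting T cells, went from 226 and 224 to 418 and 484 normalised reads, a 1.99-fold rise (limma adjusted p = 0.00131). Ccr7, the lymph node homing receptor, rose 1.54-fold (limma adjusted p = 0.00183). Cited2, a transcriptional coregulator, fell to 0.620-fold (limma adjusted p = 0.00142), and Sod2, the mitochondrial superoxide dismutase, fell to 0.764-fold (limma adjusted p = 0.0170, but 0.0982 without DMSO replicate 2). Il7r, the IL-7 receptor chain and a classical FOXO1 target in T cells, was named after its values were seen and was not called. It was at 2059 and 2360 in DMSO and at 2157 and 2820 with TMP269 (log2 fold change 0.16 ± 0.13, SE, limma adjusted p = 0.370). Its groups overlapped.

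Of 23 other quiescence genes tested, 12 rose and 0 fell with limma (0 at an unadjusted p under 0.05, and 0 in edgeR and DESeq2), with a median log2 fold change of 0.28. Slfn2, whose loss is known to break T cell quiescence, went from 4215 and 4505 to 6553 and 6831 normalised reads (1.53-fold, limma adjusted p = 0.00127). Tsc1, a brake on mTORC1, went from 967 and 1011 to 1747 and 1506 (1.64-fold, limma adjusted p = 0.00157). Without DMSO replicate 2, 7 of the 23 rose. This list also holds Cdkn1a, a p53 target as well as a cell cycle inhibitor, which rose 1.56-fold and was named after its values were seen. Among 21 further genes of naive and memory T cells, 5 were called higher and 2 lower (median log2 fold change 0.09). This list holds genes of both states, so its counts do not show a shift toward either. Dusp10, a phosphatase of stress kinases, rose 1.62-fold and Actn1, an actin crosslinker, 1.37-fold (limma adjusted p = 0.00169 and 0.00389). Cxcr3, a chemokine receptor of effector and memory cells, fell to 0.480-fold from 117 and 128 normalised reads (limma adjusted p = 0.00570). Myb fell to 0.714-fold (limma adjusted p = 0.0172), a call lost without DMSO replicate 1 (0.0612) and with equal library totals (0.0885). Without TMP269 replicate 2, 3 of the 21 rose.

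Markers of other cells moved beside these results. The summed level of 16 B cell markers was 6692 and 6934 normalised reads in DMSO and 4085 and 4049 with TMP269, with 10 called lower, 0 called higher (0 at an unadjusted p under 0.05 and 0 in edgeR and DESeq2, but 1 with the replicate number as a block) and no marker at 0 in all libraries. Foxo1, Foxp1, Bach2, Klf2 and S1pr1 are also known to be expressed in B cells. The 7 CD8 T cell and NK cell markers in the table summed to 693 and 882 in DMSO and to 608 and 876 with TMP269, higher in the second replicate of each group. So were Klf2, S1pr1, Tcf7 and Satb1 and the sums of the T cell and the myeloid markers. Foxo1, Foxp1 and Bach2 were lower in the second replicate of each group, and Foxo3 and Lef1 differed in direction between the groups. Over all genes tested, 67.6% had a replicate difference of the same sign in both groups. Of these 7 markers 5 were tested and 0 were called by limma (0 at an unadjusted p under 0.05 and 0 in edgeR and DESeq2, but 1 lower without TMP269 replicate 2 and 2 lower with the replicate number as a block), and the NK markers Ncr1 and Klrb1c were at 0 to 1.90 normalised reads in each library. The 14 myeloid and dendritic markers in the table summed to 470 and 534 in DMSO and 506 and 584 with TMP269, with 1 called higher and 1 lower. The 5 erythroid and platelet markers in the table summed to 14.5 to 36.2 per library. The 12 T cell markers summed to 84266 and 91942 in DMSO and 92602 and 96103 with TMP269. Of the 12, 1 was called higher with limma and with edgeR, 2 with DESeq2 and 3 with equal library totals. With limma, edgeR or DESeq2 0 were called lower, and 0 at an unadjusted p under 0.05, but 3 with the replicate number as a block. The 10 Th17 markers summed to 74309 and 75352, then 69679 and 68920 (2 called higher, or 1 without TMP269 replicate 1, and 4 lower). The part of these other cells in the changes of the 9 genes was not tested.

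**Figure D4:**
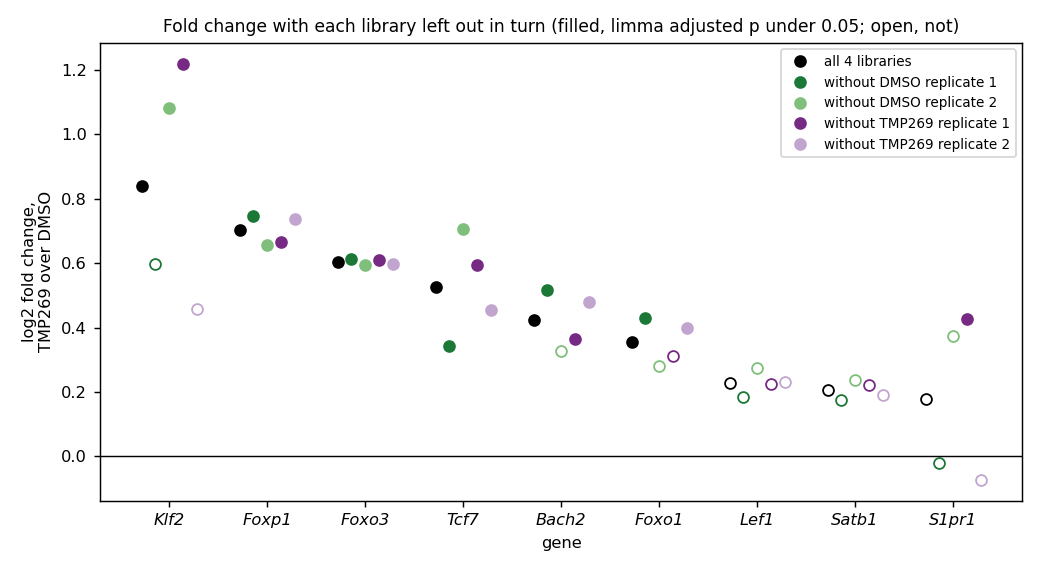
Log2 fold change with TMP269 over DMSO (vertical axis) of each gene (horizontal axis) with all 4 libraries and with each left out in turn, filled where the limma adjusted p is under 0.05. Foxp1, Foxo3 and Tcf7 stay filled throughout, and S1pr1 falls below 0 without DMSO replicate 1 or TMP269 replicate 2.

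With each library left out in turn, 4 to 6 of the 9 genes were called higher and 0 lower. Foxp1, Foxo3 and Tcf7 were called in all 4 of these fits, Bach2 in those keeping DMSO replicate 2, and Foxo1 and Klf2 in 2 each. The count of 4 came without DMSO replicate 2, the library with the highest share of Rn45s, where Foxo1 and Bach2 were not called.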

How the data were processed

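RNA sequencing libraries (2 DMSO, 2 TMP269) came from polyadenylated RNA, per the labels' protocols. The 6 chromatin libraries were not used. The authors deposited a normalised signal per gene, read counts divided by 1 size factor per library, as its values show. Multiplying back gave whole reads for 100% of values (tolerance 1e-06). Per the submitters' processing notes, TopHat2 2.1.0 and Bowtie2, HTSeq, DESeq2 and CASAVA 1.4 were used, with build mm9 and no roles given. No source used here gives the annotation or strand setting, so overlapping and antisense genes are uncertain. Columns were matched to samples by name.

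Genes reaching 10 in 2 or more libraries were tested with limma 3.58.1 (R 4.3.3, two-sided, mean-variance trend, no covariate) on log2(value + 1), which understates changes of low genes, with Benjamini-Hochberg adjustment over all 12535 and a threshold of 0.05. Alternatives were edgeR 4.0.16, DESeq2 1.42.0 and limma-voom on recovered reads, other pseudocounts, filters and scalings, the replicate number as a block, and each library left out. A lone library is then assumed to vary like the others. The fit was tested on simulated data with the same spread setting for every gene, which checks the code and not the calls reported above. Promoter windows were searched with Python 3.11.15.

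Named genes were the 9 members, and up to 2 called genes per direction and list by smallest p. Members and lists were chosen with earlier results of these data known, and adjusted p-values over lists alone are not given. Some genes of the lists that meet the rule are not reported here.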

Additional observations from a re-analysis of the deposited data

How the results depend on the processing

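Each of the 9 genes kept its direction under every alternative run, except S1pr1. Its log2 fold change was -0.019 without DMSO replicate 1 and -0.073 without TMP269 replicate 2, in a range of -0.073 to 0.43 with 1 library left out. Cd3e turned to -0.068 and -0.0052 without these same libraries, in a range of -0.068 to 0.17. The number of the 9 called higher was 4 to 8 over all alternatives, and 0 were called lower. Over all genes, leaving out 1 library gave 1040 to 1789 higher and 966 to 1823 lower calls, against 1602 and 1846. Without DMSO replicate 2 these were 1040 and 966, and 1132 were lower without TMP269 replicate 1. Lower calls came to 1042 with equal library totals and 1151 with equal totals without Rn45s. Higher genes were then 67.3% and 65.7% of calls, against 46.5%. The cause was not tested.

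With the replicate block, 3008 genes were called higher and 3352 lower, and 8 of the 9, all but S1pr1 (limma adjusted p = 0.0511). The labels do not say that numbers mark shared animals or days. Deviations of same-numbered libraries correlated at 0.371 across genes, which are not independent. Under the block, the genes called higher and lower were 6 and 5 of the S1P and MEF2 list, 10 and 4 of the TCF, LEF and Wnt list, 9 and 1 of the BACH2 list, 2 and 4 of the SATB1 list, 5 and 3 of the T cell markers, 1 and 12 of the B cell markers and 0 and 2 of the CD8 and NK markers. Precision is limited by 2 libraries per group and, for Klf2, by 153 to 401 reads.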
